A study of Mus musculus with 8 samples.

Results

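The set described here holds the genomic regions that an antibody against APOBEC2 recovered in every one of 6 chromatin immunoprecipitation (IP) libraries and that lie at the boundary of at most 1 protein-coding gene. It was chosen from the called peaks: peaks of the 6 libraries were merged where they shared at least 1 bp, regions holding a peak of all 6 libraries were kept, and regions within 1 kb of a start or end of 2 or more protein-coding genes were set aside. Of 5567 merged regions on chromosomes 1 to 19, X and Y, 428 held a peak of every library, and 327 of those met the gene rule and are the members. The other 101 lay at 2 or more genes. Among the members, 267 lay at 1 gene, which gave 266 distinct genes because Pcnt had 2 regions, and 60 had no protein-coding gene boundary within 1 kb.

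The study used C2C12 cells, a mouse line of muscle precursors that on serum withdrawal exits the cell cycle and forms myotubes. All cells had been switched from fetal bovine serum to medium with 2% horse serum, and chromatin was fixed at times that the titles give as 14 h and 34 h after the switch. The growth protocol names 24 h in place of 14 h, so the earlier time is uncertain. Each time had 3 IP libraries made with a polyclonal rabbit antibody and 1 input library without antibody; the peak lists carry the tag GFPsh, which the labels do not explain. Neither an IP from cells without APOBEC2 nor one with an unrelated antibody entered the data used here, and peak lists do not measure expression, so the myoblast identity of the cells could not be checked against marker genes. Whether replicates were separate cultures is not in the labels; the p-values below measure the spread among these libraries alone, and that spread may be technical.

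APOBEC2, a protein of skeletal and heart muscle, is related by sequence to AID and the other APOBEC cytidine deaminases, which bind zinc. No deaminase activity has been firmly assigned to it. Promoters of genes used in cell division are a well-studied class: E2F factors bind GC-rich sites at genes of the G1/S transition, and the DREAM and MuvB complexes bind the cell cycle genes homology region (CHR) at genes of G2 and mitosis, where the trimeric factor NF-Y often binds CCAAT boxes nearby. In quiescent cells DREAM represses these genes, and in cycling cells E2F activators, B-Myb and FoxM1 raise them.

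The promoters of 5 members show what lies under the highest regions. They belong to the 8 members of highest fold that have an entry in the RefSeq promoter table. They were picked after the matches were seen, to show different combinations of motifs. A CHR without E2F or CCAAT letters, as in the Haspin promoter, is not among the 5. Each covers 250 bases before to 50 after the gene start (RefSeq, GRCm38.p6, the same primary assembly as mm10), written 5′ to 3′ along the gene, with matches to E2F, CHR and CCAAT letters on either strand in capitals. Ttk lies at chr9:83834439-83834738 on the plus strand, Bub1 at chr2:127831810-127832109 on the minus strand, E2f3 at chr13:29986014-29986313 on the minus strand, Clspn at chr4:126556730-126557029 on the plus strand and Mms22l at chr4:24496201-24496500 on the plus strand.
Ttk: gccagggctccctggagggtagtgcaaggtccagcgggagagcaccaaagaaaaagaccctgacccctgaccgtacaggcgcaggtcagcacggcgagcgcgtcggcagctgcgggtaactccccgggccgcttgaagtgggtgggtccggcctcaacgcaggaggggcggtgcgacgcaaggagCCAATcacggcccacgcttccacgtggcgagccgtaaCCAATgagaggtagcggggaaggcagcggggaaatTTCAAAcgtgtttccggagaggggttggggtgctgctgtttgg
Bub1: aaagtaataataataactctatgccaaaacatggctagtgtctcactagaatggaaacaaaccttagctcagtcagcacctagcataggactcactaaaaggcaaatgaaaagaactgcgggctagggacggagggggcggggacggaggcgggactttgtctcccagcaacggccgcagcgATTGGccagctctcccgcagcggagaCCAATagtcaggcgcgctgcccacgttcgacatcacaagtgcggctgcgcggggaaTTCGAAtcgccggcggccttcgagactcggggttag
E2f3: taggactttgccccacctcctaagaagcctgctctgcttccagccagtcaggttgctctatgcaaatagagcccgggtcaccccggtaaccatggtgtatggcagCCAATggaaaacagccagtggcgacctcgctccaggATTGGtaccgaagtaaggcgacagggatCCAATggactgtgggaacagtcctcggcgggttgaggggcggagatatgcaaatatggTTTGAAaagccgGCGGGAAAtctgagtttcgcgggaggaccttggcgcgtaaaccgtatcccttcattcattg
Clspn: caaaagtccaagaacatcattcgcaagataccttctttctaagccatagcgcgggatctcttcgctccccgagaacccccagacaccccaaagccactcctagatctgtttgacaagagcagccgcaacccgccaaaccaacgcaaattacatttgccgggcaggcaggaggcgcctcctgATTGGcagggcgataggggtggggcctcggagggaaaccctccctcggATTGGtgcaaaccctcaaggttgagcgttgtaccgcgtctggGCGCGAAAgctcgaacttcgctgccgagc
Mms22l: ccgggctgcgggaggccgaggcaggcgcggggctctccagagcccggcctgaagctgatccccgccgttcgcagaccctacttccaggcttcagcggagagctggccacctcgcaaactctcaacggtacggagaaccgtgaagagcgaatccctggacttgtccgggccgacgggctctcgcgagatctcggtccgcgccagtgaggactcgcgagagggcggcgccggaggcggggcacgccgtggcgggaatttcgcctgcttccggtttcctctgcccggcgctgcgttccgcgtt

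In the Ttk promoter a CHR read on the opposite strand (TTCAAA) began at base 8 after the start, and 2 CCAAT boxes began at -65 and -28. The mean summit of the 6 libraries stood at -11.7 bp from the start, between the nearer CCAAT box and the CHR. Bub1 had the other CHR form (TTCGAA) at base 15, an inverted CCAAT box (ATTGG) at -68 and a forward one at -42, with the mean summit at -0.500 bp. E2f3 held all 3 kinds: an E2F match (GCGGGAAA, opposite strand) at -11, a CHR at -23 and CCAAT boxes at -145, -109 and -81, with the mean summit at -19 bp. Clspn held an E2F match (GCGCGAAA, opposite strand) at base 22 and inverted CCAAT boxes at -69 and -21, with no CHR letters, and its summit stood at -30.5 bp. Mms22l had no match to the 3 motifs in this window, and its summit stood at -10.7 bp.

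The folds behind these regions were the authors' values, each the IP signal over local background at the summit of a peak, and they chose the members; they are given as a description. Over all 327 members, all 3 folds of 34 h were under all 3 of 14 h in 107 (32.7%) and above them in 30 (9.17%). All 107 were among the 292 members at ordinary background, defined below (36.6% of them), of which 3 (1.03%) had all folds of 34 h above, at Cox8a, Cd2bp2 and Ube2s. The other 27 with higher folds at 34 h were among the 35 members of high background. A fold is a ratio. At the 292, local background was higher in all 34 h libraries in 208 (71.2%) and lower in 11 (3.77%). Libraries of one time were called with the same input, so their 3 backgrounds are not independent. Fragments at the summit were higher in 0 and lower in 3, at Hells, Zmym1 and Rmi2. No read totals are given to scale them for depth. Their medians at the 292 were 29, 50 and 32 at 14 h and 32, 46 and 27 at 34 h. Which part of the ratio separated the times was not tested. Ttk, the kinase that starts the spindle assembly checkpoint, had the highest lowest fold of all members (region chr9:83834377-83834989). Its folds were 34.8, 61 and 44.4 at 14 h and 28.9, 42.2 and 24.9 at 34 h, on 74, 146 and 99 and on 89, 138 and 73 fragments. Replicate 2 was the highest library at each time, and the times overlapped. Mms22l, which acts with Tonsl at stalled replication forks (chr4:24496210-24496723), had folds of 30.5, 46.7 and 34.9 at 14 h and 32.2, 40.5 and 24.3 at 34 h, also overlapping. Bub1, another spindle checkpoint kinase (chr2:127831581-127832075), had 33.8, 48.9 and 32.7 at 14 h and 27.1, 29.3 and 21.4 at 34 h, so every 34 h library was below every 14 h library. Incenp, the scaffold of the chromosomal passenger complex (chr19:9899169-9899906), had 39.9, 58.5 and 37.5 at 14 h and 28.6, 38.2 and 20.4 at 34 h, with 1 library of 34 h above the lowest of 14 h. Haspin, the kinase that marks histone H3 at centromeres for that complex (chr11:73138027-73138535), had 27, 44.1 and 27.6 at 14 h and 29.2, 35.8 and 17.9 at 34 h, which overlapped.

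Among the other regions of the leading 20 by lowest fold, 5 are given with their values here, chosen for their roles in chromosome separation, replication and the E2F network. Espl1 encodes separase, the protease that cleaves cohesin (chr15:102296021-102296624), and had folds of 22.7, 37.3 and 31.9 at 14 h and 21.5, 26 and 17.5 at 34 h. E2f3, an activating E2F factor (chr13:29985844-29986698), had 30.6, 49.6 and 37.8 at 14 h and 18.7, 27.2 and 16.9 at 34 h, with no overlap between the times. Clspn, the adaptor that passes the stalled-fork signal to Chk1 (chr4:126556616-126557287), had 29.7, 49.5 and 33.5 at 14 h and 23, 25.1 and 16.1 at 34 h, again without overlap. Plk1, the kinase of mitotic entry and exit (chr7:122159159-122159661), had 29.8, 46.0 and 37.2 at 14 h and 18.9, 28.7 and 15.6 at 34 h. Rrm2, the small subunit of ribonucleotide reductase (chr12:24707944-24708881), had the widest spread among these, with 33.8, 60.9 and 39.5 at 14 h and 27.4, 28.5 and 15.4 at 34 h. The remaining regions of the leading 20 lay at Depdc1b, Cenpf, Mettl4, Rcc1, Lsm2, Aspm, Neil3, Depdc1a, Ticrr and Birc5, and none of the 20 had a fold under 15.3 in any library. Most of the 20 are genes of mitosis, DNA replication or repair; Lsm2, a subunit of the ring around U6 RNA, and Mettl4, an adenine methyltransferase, are not.

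**Figure D1:**
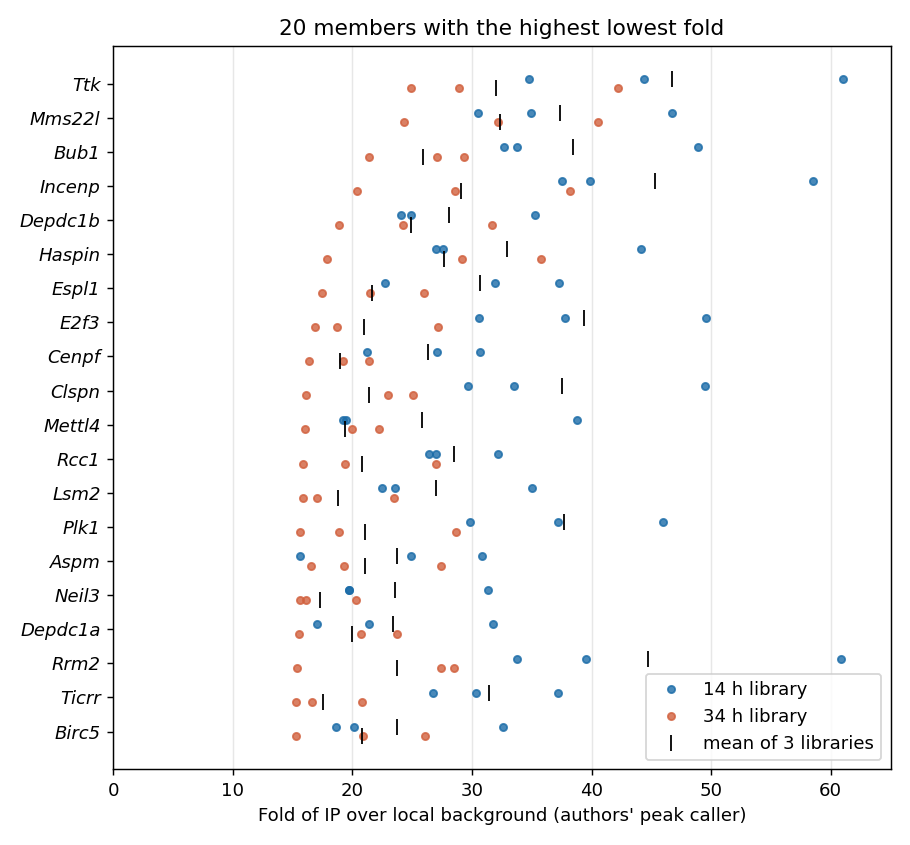
Folds over local background (horizontal axis, ratio) of the 20 members with the highest lowest fold, 1 row per gene, with 1 point per library of 14 h (blue) and 34 h (orange) and a black tick at the mean of 3 libraries. Ttk reaches from 24.9 to 61, and the lowest point of the 20 rows is 15.3 at Birc5.

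Over the whole set, members, chosen for a call in all 6 libraries, stood high in every list. Their median folds were 11.2, 17.3 and 12.0 at 14 h and 9.29, 11.8 and 7.43 at 34 h, against medians of 8.11, 8.00 and 8.48 and of 5.92, 5.72 and 6.04 over all peaks of the same lists. Of the 100 peaks of highest fold in each list, 69 to 75 lay in a member. The lists differed in length, with 768, 1327 and 797 peaks at 14 h and 2209, 5025 and 1068 at 34 h. Members took up 47.2, 26.9 and 44.7% of the 14 h lists and 15.3, 6.61 and 33.9% of the 34 h lists. Summits of the 292 members at ordinary background stood on a median of 27 to 50 fragments by library and on at least 10, which limits the precision of each fold; a site with no call is not shown to be unbound.

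Members with a listed gene start mostly sat close to it. Strand and start came from the RefSeq promoter table, which had an entry for 222 members (221 genes), 113 on the plus and 109 on the minus strand. With that strand, 220 lay within 1 kb of the boundary that the gene table gives on the start side alone, none of that on the end side alone, and 2, at the short histone genes H1f2 and H1f5, of both. The rule allowed either boundary, so the side was not fixed by it. The mean summit over the 6 libraries fell within 100 bp of a listed start in 151 and within 250 bp in 193, and it lay upstream in 143. Its median position was -27.7 bp, with quartiles at -97.7 and 13.7 bp. The 5 members whose mean summit was over 1000 bp from a listed start were Setd5, Kif2c, Kif14, H1f5 and Pkn3; at all but H1f5 the gene table holds a start nearer to the region than the promoter table does. They were named after their values were seen.

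The libraries placed these summits alike. The median distance to the start was 53.0, 50.5 and 52.0 bp at 14 h and 54.5, 62.5 and 55.0 bp at 34 h. The groups did not overlap, but the difference of 5.50 bp (51.8 ± 1.26 against 57.3 ± 4.48 bp, SD, n = 3 each) had an exact two-sided permutation p of 0.100, the smallest that 3 against 3 libraries allow, and an adjusted p of 0.133 over the 4 tests made here. With the mean over members in place of the median the difference was 0.420 bp. Within a region at ordinary background the 6 summits spread over a median of 50.5 bp, from 8 to 329 bp, and 260 of 292 stayed within 100 bp. The mean summit moved by a median of 12.7 bp between the times. In 325 of 327 members the 6 peaks shared at least 1 base.

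**Figure D2:**
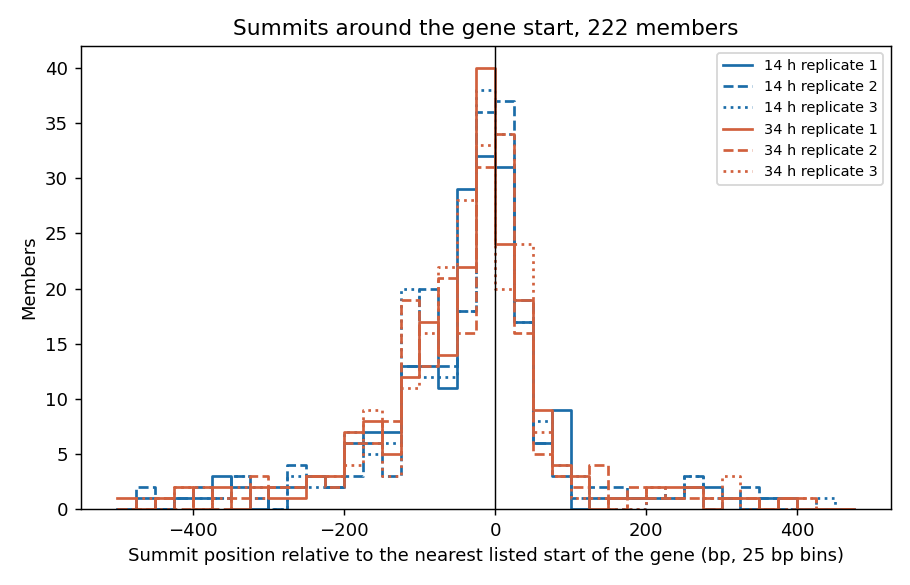
Number of members (vertical axis) by distance of the summit from the nearest listed start of the gene (horizontal axis, bp, 25 bp bins, negative is upstream) for each of the 6 libraries, over 222 members. All 6 lines peak beside the start; 62.6 to 68.9% of summits lie within 100 bp of it.

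Member peaks were 257, 380 and 251 bp wide by median at 14 h and 328, 431 and 243 bp at 34 h. The times overlapped, with a difference of 38.0 bp (296 ± 72.8 against 334 ± 94.1 bp, SD, n = 3 each). The exact two-sided permutation p was 0.700 (adjusted 0.700), in a test that could not go below 0.100. Without replicate 2 of 34 h, the library with the longest list, the difference was -10.5 bp.

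The genes at the members were then read by role. The background for every count below is that 266 of 21887 protein-coding genes, 1.22%, had a member at a boundary. The lists were drawn up with earlier results of these data known, so a count is a description and no independent evidence; intervals here are 95% exact binomial ones for counting error alone. Together, 139 of the 266 genes stood on one of 22 lists and 127 on none. Of all 21887 protein-coding genes, 1827 were on a list, and the list of olfactory receptors alone held 1110. A listed gene whose region lies at 2 or more genes falls outside the rule, and the count of genes with any region of all 6 libraries, for which the background is 2.13%, is given beside each list that gains at least 5 genes by it.

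Mitotic entry kinases, cyclins, phosphatases and their partners had 18 members of 27 genes (66.7%, interval 46.0 to 83.5), and 23 with any region of all 6 libraries. Racgap1, part of the centralspindlin complex (chr15:99651475-99651868), had folds of 22.8, 31.0 and 19.4 at 14 h and 11.9, 17.7 and 10.8 at 34 h. Its times did not overlap, whereas those of Depdc1b did, with 24.9, 35.3 and 24.1 against 24.2, 31.7 and 18.9. Ccnb2, a B-type cyclin, had 18, 22.6 and 16.8 against 10.2, 13.4 and 7.20. Ccnb1, the other main B-type cyclin, had 9.98, 8.51 and 8.63 against 6.42, 7.95 and 7.39, lower than Ccnb2 in every library but replicate 3 of 34 h. Other members were Cdk1, Wee1, Cdc25c, Ccnf, Melk, Pbk, Nek2, Ect2, Cit, Arhgap11a, Fam83d, Troap and Depdc1a.

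Kinetochore, passenger complex and spindle checkpoint genes had 23 members of 52 (44.2%, interval 30.5 to 58.7), and 33 with any region of all 6 libraries. The members named here reach from the inner to the outer kinetochore: Cenph, Cenpi, Cenpm, Cenpn, Cenpu and Cenpw of the centromere network, Knl1, Nuf2, Spc24 and Spc25 of the microtubule-binding layer, the deposition factors Hjurp and Mis18a, and the checkpoint protein Mad2l1. Aurkb and Birc5 of the passenger complex were members beside Incenp. Birc5 had folds of 20.1, 32.6 and 18.6 at 14 h and 20.9, 26.1 and 15.3 at 34 h, and the times overlapped. Aurkb (chr11:69045460-69045904) had 17.8, 30.8 and 18.2 at 14 h and 9.57, 10.2 and 9.87 at 34 h, and they did not. The median rank of the 23 genes among members at ordinary background was at percentile 75.3, 73.8 and 78.1 at 14 h and 67.8, 64.9 and 67.0 at 34 h, where 50 is the middle of the set. The 14 DNA replication members, given below, stood at 81.8, 71.2 and 71.9 against 80.4, 69.0 and 78.2, which was higher in every 34 h library. The 18 mitotic entry members, the list of the highest share, stood at 36.8, 50.9 and 50.0 against 52.5, 53.3 and 43.3.

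Centriole, centrosome and spindle assembly genes had 17 of 44 (38.6%, interval 24.4 to 54.5), and 24 with any region of all 6 libraries. Aspm, a spindle pole protein lost in primary microcephaly (chr1:139454446-139455045), had folds of 15.6, 30.8 and 24.9 at 14 h and 19.3, 27.4 and 16.5 at 34 h. Sass6, which forms the cartwheel of a new centriole, had 21.2, 30.3 and 26.2 against 18.7, 23.1 and 14.2, and Plk4 and Stil, which start that assembly, were members too. Pcnt, a scaffold of the centrosome, carried 2 separate regions: that at the start (chr10:76442581-76443160) had folds of 20.2, 18.8 and 15.4 against 12.5, 12.6 and 10.5, and its neighbour (chr10:76442211-76442566) had 9.30, 13 and 7.11 against 9.37, 12.7 and 9.23. The kinesins had 8 of 31 (25.8%, interval 11.9 to 44.6), and 13 with any region of all 6 libraries; of the members, Kif18b had the highest fold of any library, at 26.4, 38.8 and 24.6 against 22, 19.6 and 11.3. Kif2c, Kif23, Kif20b, Kif22, Kif14 and Kifc1 act in mitosis; Kif2a also depolymerises microtubules in neurons.

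Genes of the anaphase-promoting complex, its regulators and E2 enzymes had 5 of 22 (22.7%, interval 7.82 to 45.4). These 5 were the inhibitor Fbxo5, the E2 enzymes Ube2c and Ube2s, and separase Espl1 and the E2 enzyme Ube2t, which were both placed on this list. No core subunit of the complex was among them. Cohesin, condensin and sister chromatid genes had 7 of 27 (25.9%, interval 11.1 to 46.3) and 13 with any region of all 6 libraries, with Smc2, the ATPase shared by both condensins, at 15.6, 23 and 17.4 against 9.31, 13.1 and 8.64. Top2a, which decatenates sister chromatids, had 10.6, 15.9 and 7.69 at 14 h and 4.95, 17.5 and 5.51 at 34 h, the widest range of the 7 at the later time. Ncapg, Ncapg2 and Ncaph of the condensins, the acetyltransferase Esco2 and the cohesin regulator Pds5a completed the group.

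DNA replication origin and fork genes had 14 of 62 (22.6%, interval 12.9 to 35) as members and 21 with any region of all 6 libraries. Ticrr, needed to fire origins (chr7:79659933-79660448), had folds of 26.7, 37.2 and 30.3 at 14 h and 15.3, 20.8 and 16.6 at 34 h, with no overlap. Gmnn, the inhibitor of the licensing factor Cdt1, had 15.1, 25.2 and 16.4 against 15.0, 17.4 and 15.4, and Cdt1 itself had 10.7, 15.5 and 8.22 against 7.07, 6.17 and 5.19. Of the replicative helicase ring Mcm3 (21.9, 28.2 and 20.0 against 13.4, 16.9 and 8.32) and Mcm5 (5.68, 9.55 and 6.48 against 6.55, 9.23 and 5.25) were members. Deoxynucleotide synthesis had 4 of 12 (33.3%, interval 9.92 to 65.1), where Rrm1, the large subunit of ribonucleotide reductase, stood lower than Rrm2, at 11.7, 15.3 and 14.6 against 11.5, 16.0 and 11.6; Dck and Shmt1 were the others.

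Homologous recombination and Fanconi anaemia genes had 10 of 42 (23.8%, interval 12.1 to 39.5) as members and 18 with any region of all 6 libraries. Brca2, a mediator of strand exchange, had the highest lowest fold of these, at 17.3, 19 and 16.6 against 9.36, 14.6 and 10.8. The median percentiles of the 10 were 44.2, 47.1 and 33.4 at 14 h and 31.2, 40.9 and 44.3 at 34 h. Damage checkpoint and mismatch repair genes had 4 of 21 (19.0%, interval 5.45 to 41.9), led by Uhrf1, which binds hemimethylated DNA behind the fork (24.9, 36.8 and 24.9 against 18, 23.4 and 12.1), with Mdc1, Msh6 and Rad18.

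The list of E2F, MuvB, B-Myb and pocket protein genes had 8 of 21 (38.1%, interval 18.1 to 61.6): the activator E2f3, the atypical repressors E2f7 and E2f8, the MuvB subunits Lin9 and Lin54, Mybl1, Mybl2 (B-Myb) and the pocket protein Rbl1. The median percentiles of the 8 were 46.2, 33 and 36.3 at 14 h and 54.4, 36.5 and 54.7 at 34 h. Lin9 (chr1:180641015-180641633) had folds of 38.5, 46.4 and 38.4 at 14 h and 20.6, 27.3 and 12.1 at 34 h. Mybl2 (chr2:163054421-163054859) had 30.2, 38.4 and 32.7 against 15.5, 21.7 and 14.8. In both, every library of 34 h was below every library of 14 h. G1 cyclins, kinases and inhibitors had 2 of 18 (11.1%, interval 1.38 to 34.7), and both were inhibitors of Cdk4 and Cdk6: Cdkn2c, at 9.40, 17.9 and 9.99 against 10.0, 10.1 and 7.34, and Cdkn2d, at 15.3, 29.7 and 19.8 against 8.95, 10.6 and 7.18.

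Histone variants and chaperones had 6 of 23 (26.1%, interval 10.2 to 48.4), among them Hmgb2 (16.3, 25.7 and 15.3 against 13.9, 19.4 and 11.9), the deposition chaperones Asf1b and Chaf1a and the variant H2az1. Replication-dependent histones had 2 of 63 (3.17%, interval 0.387 to 11) and 12 with any region of all 6 libraries; both members were linker histones. At H1f2 (chr13:23739521-23740037, folds 14.0, 23.2 and 14.1 against 13.5, 15.3 and 11.8) the mean summit stood 964.3 bp after the listed start, and at H1f5 it stood 1098 bp after it, so neither region lay on the start itself. Nuclear pore and envelope genes had 9 of 44 (20.5%, interval 9.80 to 35.3), led by Rcc1, the exchange factor of Ran on chromatin (27, 32.2 and 26.4 against 19.4, 27 and 15.9). Chromatin modifiers had 2 of 44 (4.55%, interval 0.555 to 15.5), the H3K9 methyltransferase Suv39h1 (15.5, 28.9 and 15.9 against 15.4, 17 and 10.5) and the Polycomb subunit Suz12 (7.33, 11.4 and 8.39 against 8.67, 12.4 and 6.61).

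The other 6 lists had no member. Muscle contraction and differentiation genes had 0 of 54, with an upper limit of the interval of 6.60%. The same held for Id proteins, E-proteins and myogenic cofactors (0 of 15, up to 21.8%), SP and KLF factors (0 of 26, up to 13.2%), heat shock proteins and chaperonins (0 of 31, up to 11.2%), translation factors (0 of 39, up to 9.03%) and olfactory receptors (0 of 1110, up to 0.332%). These 6 also had no gene at the other 101 regions of all 6 libraries. With a background of 1.22%, lists of this size other than the olfactory receptors would hold few members at the background share, so a 0 there says little.

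Sequence was not used by the rule, and the promoters of the members were compared with those of all protein-coding genes over the same 300 bases. A match is a description and not a site of binding. E2F letters were TTTCCCGC, TTTCGCGC, TTTGCCGC and TTTGGCGC, CHR letters TTTGAA and TTCGAA, all on both strands. E2F letters were in 43 of 221 member promoters (19.5%, interval 14.5 to 25.3) against 2.85% of 21263 promoters. CHR letters were in 95 (43.0%, interval 36.4 to 49.8) against 17.6%. Member promoters were richer in GC, with a median of 60.7% against 56.3%, and in CpG, with 24.0 against 13 per 300 bases. Among the 6018 promoters with a GC content between 56.7 and 65.7%, the middle range of the members, E2F letters were in 4.35% and CHR letters in 11.3%.

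Against the GC-matched promoters, the ratio of shares was lower for the other letters than for E2F and CHR. CCAAT was in 57.5% of member promoters, against 38.2% of all and 38.9% at matched GC. The GC box GGGCGG was in 75.1%, against 46.2% and 65.3%, and the ETS letters CCGGAAG were in 23.1%, against 11.6% and 17.9%. TGACGTCA (CRE) was in 5.43%, against 2.23% and 3.56%, and GCATGCGC (NRF1) in 6.79%, against 3.52% and 5.32%. Letters without a higher share were AAGATGGC (YY1, 1.36%, against 3.05% and 4.32%), TATAAA (4.52%, against 12.6% and 5.33%) and the AP-1 forms TGACTCA and TGAGTCA (2.71%, against 4.66% and 3.67%). The myogenic E-box CAGCTG, which MyoD binds, was in 12.2%, against 15.6% and 17.7%. None of these shares was tested, since promoters of one genome are not replicates.

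CHR matches lay mainly beside the start. Of 110 CHR matches in member promoters, 67 (60.9%) were centred within 50 bp of the start, against 23.2% of matches in all promoters. In the 25 bases after the start there were 11.8 matches per 100 member promoters against 1.16 in all, and in the 25 bases before it 8.60 against 1.21. E2F matches stood within 50 bp of the start in 38.8% against 34.6%, CCAAT in 36.1% against 27.9% and the GC box in 41.5% against 43.7%. Summits also lay close to the CHR. In the 80 promoters with a CHR match and the mean summit inside the window, the median distance from summit to nearest match was 16.7 bp, and the distance from summit to start was 30.8 bp; 68 of the 80 lay within 50 bp of a match. For CCAAT the distances were 22.8 bp to the match and 36.2 bp to the start in 112 promoters, for E2F 37.6 and 51.5 bp in 42, and for the GC box 36.8 and 38.2 bp in 138. Within 50 bp of a match lay 87 of the 112 for CCAAT, 22 of the 42 for E2F and 84 of the 138 for the GC box. Motifs with more matches are nearer to any point by number alone. Matches and summits that both gather at the start are near each other by position alone. Neither was corrected for.

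**Figure D3:**
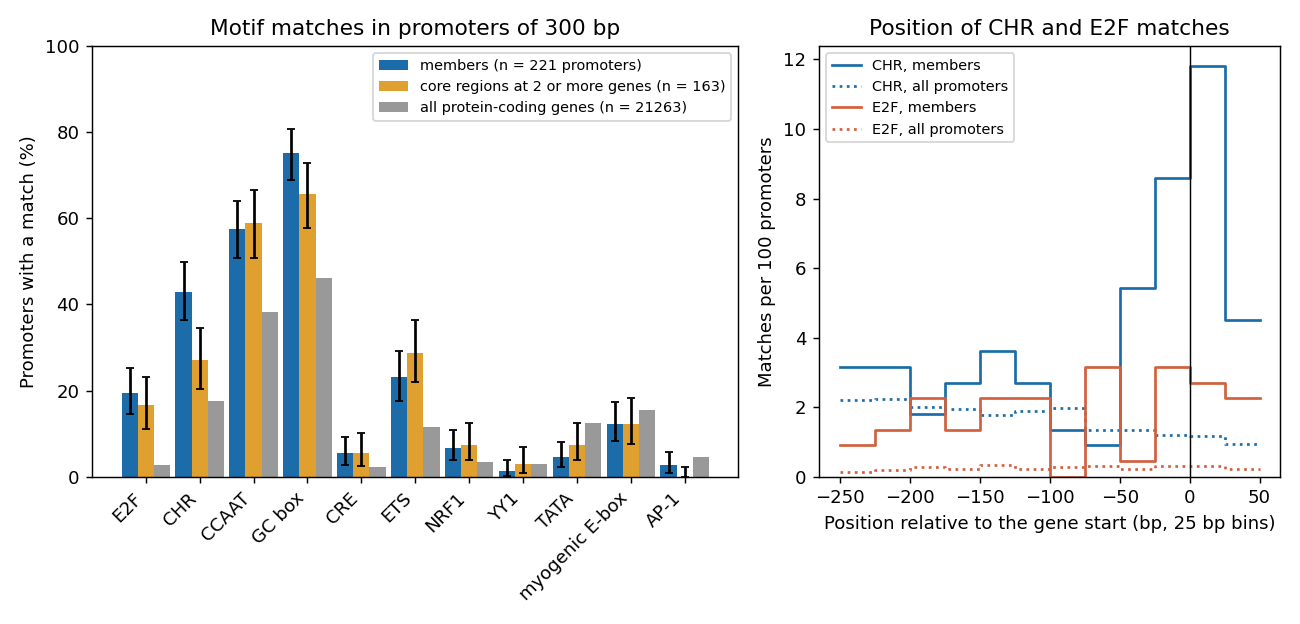
Left, percent of promoters with a match (vertical axis) to each of 11 motifs in members, in regions of all 6 libraries at 2 or more genes and in all protein-coding genes; bars on the first 2 are exact binomial 95% intervals. Right, matches per 100 promoters (vertical axis) by distance from the start (horizontal axis, bp); the CHR line of the members reaches 11.8 in the bin after the start, where all promoters have 1.16.

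The letters are given for each gene list with at least 5 promoter entries, with no test between lists. Of 11 replication genes with a promoter entry, 7 had E2F letters and 2 had CHR letters. CHR letters were the more frequent among 18 kinetochore genes, with 2 and 12, 14 mitotic entry genes, with 2 and 9, 8 kinesins, with 0 and 7, 5 genes of the anaphase-promoting complex list, with 0 and 4, and 7 nuclear pore genes, with 0 and 3. All 6 histone variant and chaperone genes had a CCAAT box, 2 had CHR letters and none had E2F letters. The counts were close among cohesin and condensin genes, with 3 and 4 of 6, E2F and MuvB genes, with 3 and 3 of 6, and recombination genes, with 3 and 2 of 6. Centriole genes had 1 with E2F and 7 with CHR letters of 16, and 12 with CCAAT.

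Over 222 members with an entry, 13 had both E2F and CHR letters (5.86% against 0.414% of all promoters), 30 had E2F alone (13.5% against 2.44%), 82 had CHR alone (36.9% against 17.2%) and 97 had neither (43.7% against 79.9%). The matches of the 2 motifs overlapped in 0 promoters. Members with CHR alone ranked highest among the classes at 14 h, at a median percentile of 64.2, 61.8 and 62.5, and stood at 61.5, 58.8 and 59.3 at 34 h. The 13 members with both stood at 37.3, 26 and 38.7 at 14 h and at 68.5, 62.3 and 65.4 at 34 h, without overlap between the times. Those with E2F alone stood at 42.6, 35.6 and 32.8 against 42.0, 43.7 and 50.1, and those with neither at 47.6, 49.7 and 49.7 against 44.7, 48.3 and 46.6. These ranks were not tested, as the folds had chosen the members and the classes were formed after the data had been seen.

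Each member was also placed by its rank among the 327 within a library, where rank 1 is the highest fold; a rank keeps any change in a region's own background. In 49 members (15.0%) all 3 libraries of 34 h ranked higher than all 3 of 14 h, and in 62 (19.0%) all ranked lower; these shares are the background for the genes that follow. Over all 327 members, local background was higher in all 34 h libraries in 213 (65.1%) and lower in 14 (4.28%). In the 49 it was higher in 11 and lower in 11, and in the 62 it was higher in 58 and lower in 0. It was lower in all of the 5 largest rises and higher in all of the 5 largest falls. Background is part of the fold that gave these ranks. Fragments at the summit were higher in all 34 h libraries in 2 of the 49 and lower in 2 of the 62, and among the 10 regions below this held only for Rmi2, with lower fragments at 34 h. Cdk1, the kinase that drives mitosis (chr10:69352719-69353245), moved from ranks 184, 149 and 191 to 10, 19 and 22. Its folds were 10.1, 18.4 and 10.7 at 14 h and 21.6, 25 and 15.5 at 34 h. They stood on 46, 95 and 45 against 62, 81 and 45 fragments, which overlapped, over a background of 3.66, 4.21 and 3.32 against 1.91, 2.29 and 1.98. Ncapg, a condensin subunit (chr5:45669663-45670136), moved from a mean rank of 258 to 76.0, with folds of 6.91, 12.0 and 6.72 against 13.7, 14.1 and 11.6. Ube2s, the chain-extending enzyme of the anaphase-promoting complex (chr7:4812294-4812980), moved from 267 to 101, with folds of 6.10, 7.99 and 8.48 against 11.2, 15.6 and 9.11. Haus5, an augmin subunit (255 to 106), and Fbxo5, the inhibitor of the same complex (253 to 116), completed the 5 largest rises.

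In the other direction, Rmi2, a partner of the Blm helicase (chr16:10834844-10835244), moved from a mean rank of 83.0 to 249, with folds of 19.2, 22 and 16.6 at 14 h and 8.33, 6.90 and 5.16 at 34 h. Zfp101, a zinc finger gene, moved from 89.7 to 232, with 14.4, 23.7 and 17 against 6.88, 7.50 and 7.07. Its fragments were 29, 54 and 36 against 35, 44 and 34, and its background was 1.08, 1.32 and 1.17 against 4.23, 5.00 and 3.95. Mns1, a gene of motile cilia and sperm flagella, moved from 99.3 to 234, Cenps, of the centromere network, from 139 to 268, and Haus4 from 128 to 257. Haus4 and Haus5, subunits of one complex, were thus picked from the largest falls and rises. Haus6, another member of that complex, ranked 67, 95.5 and 70 at 14 h and 166, 125 and 192 at 34 h. Haus4 had folds of 12.6, 21.8 and 12.5 against 4.81, 9.56 and 5.69, and Haus5 had 7.56, 10.4 and 7.39 against 13.2, 14.6 and 7.80. Fragments overlapped between times at Haus4, with 24, 47 and 25 against 16, 37 and 20, and at Haus5, with 25, 47 and 26 against 29, 36 and 17. What moved the background was not tested. Fold order was more alike within than across times. Over the 292 members at ordinary background, rank correlations of fold between pairs of libraries were 0.853 to 0.872 within 14 h, 0.744 to 0.811 within 34 h and 0.594 to 0.720 across times; libraries of one time share an input.

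**Figure D4:**
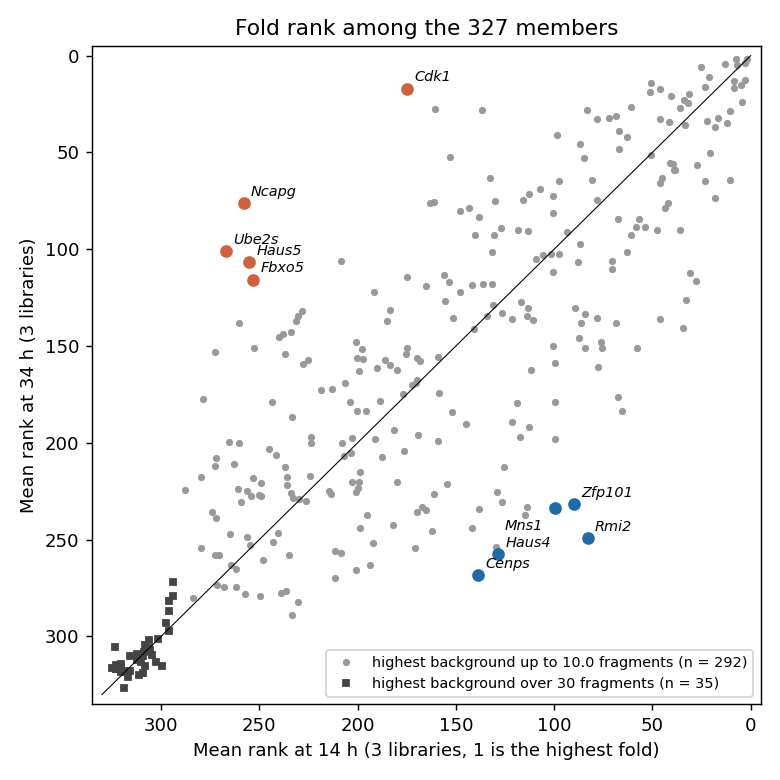
Mean fold rank of each of the 327 members at 34 h (vertical axis) against 14 h (horizontal axis), 3 libraries each, rank 1 being the highest fold; the line marks equal ranks. Cdk1 stands at 175 and 17, far above the line, and Rmi2 at 83.0 and 249, far below it.

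A minority of the members differed from all the rest. The fold and p-value of a peak fix its fragments and its local background, and in 35 members the highest background of the 6 libraries was 30.9 to 203 fragments, against 1.48 to 10.00 in the other 292, called members at ordinary background here. The limit of 20 fragments between them was set after the values had been seen. All 35 lacked a protein-coding gene boundary. Of these, 23 lay together in chr9:2999957-3038325 and 1 more on the same chromosome, 3 lay in chr2:98662179-98667387 and 8 elsewhere, among them the region over the ribosomal RNA gene Rn18s-rs5 (chr17:39842901-39848926). Their folds ran from 1.48 to 6.04 on 94 to 374 fragments, so their calls rested on many fragments and a small ratio. The lowest of all members was chr2:98663586-98664126, at 1.71, 1.84 and 1.48 at 14 h and 2.35, 2.22 and 1.92 at 34 h, where every 34 h library was above every 14 h library, as at 27 of the 35 (77.1%). None of the 101 regions at 2 or more genes had such a background. The background at these regions moves with their low fold; what produced it was not tested.

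**Figure D5:**
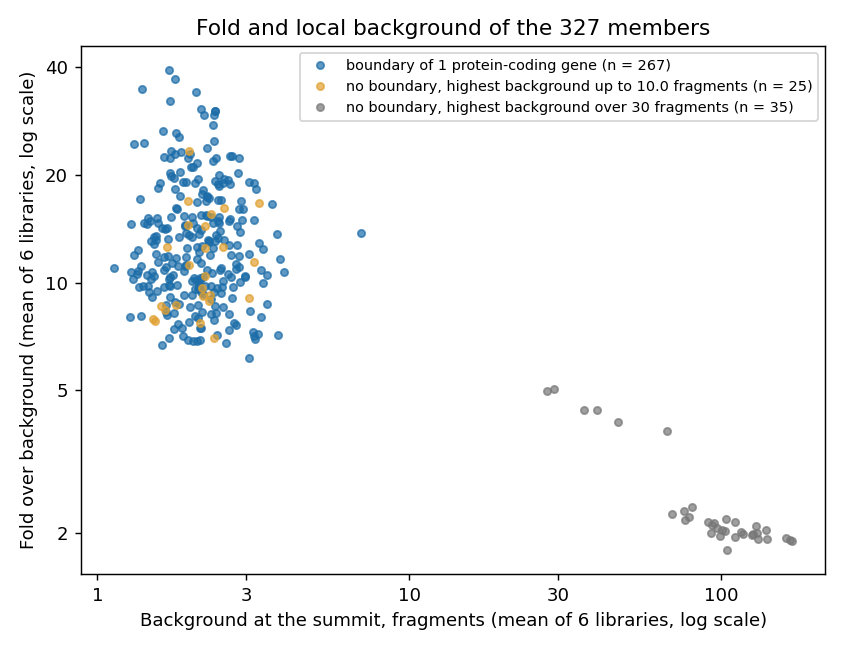
Mean fold over 6 libraries (vertical axis, log scale) against mean local background in fragments (horizontal axis, log scale) for the 327 members, by gene boundary. The 35 regions with a highest background of 30.9 fragments or more form a separate cloud at low fold, and the 25 other regions without a boundary lie among the 267 with one.

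The 25 members at ordinary background without a gene boundary had folds in the range of the gene members. Of these, 19 lay inside a protein-coding gene, and 13 had a start of a coding gene in the promoter table within 1 kb that the gene table, with 1 start and 1 end per gene, does not hold. That of the highest lowest fold lay inside Sgo1, the protector of centromeric cohesin (chr17:53689091-53689681), with folds of 22.7, 32.8 and 24.3 at 14 h and 20.4, 25.9 and 14.5 at 34 h, and its summit stood 32.5 bp from a listed start of that gene. The next were inside Mtfr2 (15.7, 26.1 and 20.0 against 11.4, 16.2 and 10.9), Wdr62, a spindle pole protein (12.2, 24.1 and 10.7 against 17.7, 21.4 and 15.5), Poc1a, a centriole protein (11.1, 20.7 and 10.4 against 16.5, 20.9 and 17.3) and Fancm, the Fanconi anaemia translocase (12.4, 16.9 and 11.8 against 10.4, 14.9 and 9.07). Their summits stood 40.5, 2.17, 274 and 31.7 bp from a listed start of the gene. Sgo2a, the paralogue of Sgo1, also had such a region. Of the 25, 5 had a boundary of a non-coding gene within 1 kb, and 4 had no coding gene around them, no listed start and no non-coding boundary nearby: chr1:88534182-88534523, chr4:82513147-82513484, chr10:81168727-81169052 and chr18:62049896-62050317.

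The members were set beside the 101 regions of all 6 libraries at 2 or more genes, which met the same demand on libraries. The median fold percentile within a list was lower for members in 6 of 6 libraries, at 80.2 ± 9.95 against 83.1 ± 9.48 (SD, n = 6 libraries), a difference of -2.83 percentile points. The exact two-sided sign-flip permutation p was 0.0312, the smallest that 6 libraries allow, and 0.125 after adjustment over the 4 tests. With smallest exact permutation p-values of 0.0312 and 0.100, none of the 4 could pass the threshold of 0.05 after adjustment. The test therefore cannot decide whether the sets differ. Both sets were chosen by calls in all 6 libraries, and fold goes with a call, so this difference is a description. The same regions recur in every library, so the 6 differences are not independent results. The 35 regions of high background have no gene boundary and could fall only among the members. Without them the difference was -0.484 (exact permutation p = 0.562). Member peaks were wider in 5 of 6 libraries, at 315 ± 78.1 against 303 ± 72.1 bp, a difference of 12.2 bp (exact permutation p = 0.0625, adjusted 0.125). The difference in width was 6.83 bp without those 35 (exact permutation p = 0.0312, the smallest possible, which cannot pass after adjustment). CHR letters were in 43.0% of member promoters and in 27.0% (interval 20.3 to 34.5) of 163 promoters at the other regions, and E2F letters in 19.5 and 16.6%. CCAAT was alike, at 57.5 and 58.9%. Each of the other 101 regions can give promoters of several genes, whereas a member gives that of 1, so the shares are on unlike units. They were not tested.

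The limits of the rule cut through like regions. Just inside 1 kb were the regions at Cep120 (753 bp from a boundary, mean fold 7.64), Srsf1 (677 bp, 7.64) and E2f8 (654 bp, 9.11). Just outside, and so counted as without a gene, were those near Pias4 (1007 bp, mean fold 7.79), Tyw1 (1059 bp, 11.4) and Wdr62 (1265 bp, 16.9). Ankle1, Traip and Cd2bp2 were members because the next gene lay 1053, 1072 and 1149 bp away, whereas the regions at Ttc32 and Ddias were not, with another gene at 922 and 853 bp. Another 160 regions held a peak of 5 libraries, of which 128 had at most 1 gene. The missing library was replicate 3 of 34 h in 59, replicates 3, 1 and 2 of 14 h in 31, 28 and 4, replicate 1 of 34 h in 6 and replicate 2 of 34 h in 0. Their median mean fold was 7.87 against 12.1 for the members at ordinary background. The highest was Hinfp, a regulator of histone H4 genes, at 14.6, then BC052040 at 14.1, Rfc4, a clamp loader subunit, at 12.7, Casp8ap2 at 12.2 and Nup85 at 12.1.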

How the data were processed

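C2C12 cells gave 3 IP libraries and 1 input at each of 2 times; groups and replicate numbers came from the sample titles, and the inputs, which have no peak list, entered only through the authors' calls. The submitters' processing notes name Subread, MACS2 and the build mm10; no version or threshold is given in the sources used here. Per the names of the deposited lists, each IP library was called alone with the input of the same time. The fold deposited by the authors, a ratio of IP over local background on a linear scale, was used to describe and rank peaks; raw folds were not tested between times, and a fold percentile within each list was compared between sets of regions. Further deposited columns hold −log10 p, −log10 q and a whole-number score. The narrowPeak and summit lists of the authors give no read totals.

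Peaks were merged at an overlap of 1 bp with Python 3.11.15 (numpy 2.4.6, scipy 1.17.1, pandas 2.3.3; figures with matplotlib 3.10.9). Where a library had several peaks in a region, that of highest −log10 p stood for it. The whole number of fragments and the background at each summit were solved from fold and p for 100% of peaks, within 0.001 on the −log10 p scale, by code tested on simulated data. Gene boundaries (21887 protein-coding genes) and promoters came from RefSeq tables of GRCm38.p6; 45 of the 267 gene members had no promoter entry used here. For a gene with several starts, the start nearest to the summits was used. Of 721 symbols on the gene lists, 3 matched no gene.

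Genes named were the 20 members of highest lowest fold, up to 4 per gene list, the 5 highest without a gene boundary, the 5 largest rises and falls in rank without overlap between times, the 3 lowest and those nearest the 1 kb limit; a few more are named as list members. The members, lists and motifs were chosen with earlier results of these data known. Values per library were compared by exact two-sided permutation tests, and intervals of shares are exact binomial at 95%. Values of a few genes are not reported here.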

Additional observations from a re-analysis of the deposited data

How the results depend on the processing

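The number of members, 327, was 303 at a −log10 q of at least 5, 247 where every list was limited to its 768 peaks of best p, 306 at 50% reciprocal overlap, 342 and 314 with windows of 500 bp and 2 kb, 325 where all 6 peaks had to share a base and 292 without the regions of high background. Leaving out each library in turn gave 330 to 386. The difference in peak width between times was -10.5 bp without replicate 2 of 34 h and up to 83.5 bp without another library; the cause was not tested. That in distance to the start was 2.92 to 6.92 bp, that in fold percentile -3.33 to -2.11 and that in width against regions at 2 or more genes 9.60 to 14.6 bp. With means in place of medians the last 2 were -8.49 points and 34.7 bp. None of the 4 tests could pass the adjusted threshold under any alternative. Their smallest exact permutation p-values, at best 0.100 between times and 0.0312 between sets, are too large for it. On the gene's own strand alone, E2F letters were in 10.9% (all promoters 1.48%), CHR in 28.1% (10.8%), CCAAT in 35.7% (21.6%), the GC box in 52.0% (30.8%) and ETS in 14.0% (6.30%) of member promoters; 1 strand holds fewer matches by construction.

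With the replicate number as a block, the difference in distance to the start was 5.50 bp (exact sign-flip permutation p = 0.250) and that in width 38.0 bp (p = 0.500). The numbers were not taken to pair the libraries. Deviations of same-numbered libraries correlated at -0.00992, 0.141 and 0.138, and those of differently numbered libraries at -0.144 to 0.0169. The highest of these, 0.141 and 0.138, were between same-numbered libraries, and whether the numbers pair the libraries was not tested. Member peaks stand on as few as 10 fragments, and calls near the threshold can be lost by counting error alone. The exclusion of regions of high background was chosen after seeing the data.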

Other observations

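Of the 266 genes at members, 127 were on none of the 22 lists. Those of the highest lowest folds, named after their values were seen, were Mettl4, Lsm2 and the DNA glycosylase Neil3, given above, then Iqgap3, Diaph3 and Zfp367. Iqgap3, a scaffold of the Rac and Cdc42 pathways (chr3:88081812-88082249), had folds of 29.7, 43.8 and 35.1 at 14 h and 14.6, 22.9 and 20.0 at 34 h. Diaph3, a formin of the contractile ring and cortex (chr14:87140989-87141451), had 19.3, 21.7 and 17.6 against 20.0, 18.6 and 14.4, which overlapped. Atad5, which unloads the sliding clamp PCNA, had 14.4, 23.4 and 15.3 against 16.4, 19.3 and 13.2. Lsm5 (13.7, 21.1 and 15.8 against 11.2, 14.6 and 9.07) and Lsm6 (10.3, 16.9 and 12.1 against 9.84, 10.6 and 8.40), whose proteins share a ring around U6 RNA with that of Lsm2, were also members.

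Members at ordinary background were found on every chromosome but Y, which had 0 for 256 protein-coding genes. Over all chromosomes 292 such members, of which 25 had no gene boundary, stood beside 21887 protein-coding genes. Per 1000 protein-coding genes there were 22.1 on chromosome 8 and 19.9 on chromosome 1, the highest, and 4.14 on X, the lowest of those with any. The 4 on X stood beside 966 genes.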
